A study of Mus musculus with 10 samples.

Results

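Axon guidance genes encode the secreted and membrane cues that steer growing axons and vessels, together with the receptors that read them. A group of 46 such genes, of 21938 protein-coding genes on the main chromosomes, was examined for the repressive histone mark H3K27me3 in the mouse fetal liver, in long-term (LT) hematopoietic stem cells (HSCs). The members were 13 semaphorins, 5 plexins, 7 Slit and Robo genes, 7 netrins and netrin receptors, 9 Eph receptors and 5 ephrins, listed by name, and none was chosen by a threshold on its signal. A gene was called marked in a library when a peak overlapped its promoter, that is the 5 kb before and the 100 bp after any of its transcription start sites (TSSs) on GRCm38. The libraries were made by CUT&Tag, in which an antibody directs the Tn5 transposase so that sequenced fragments lie where the histone mark lies.

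The LT-HSCs were sorted as LSKCD48-CD150+ cells from fetal livers at E14.5, with 3 libraries from wild-type embryos (WT) and 3 from embryos without IκBα (KO). IκBα, encoded by Nfkbia, is an inhibitor of NF-κB. The KO came from the targeted mouse line Nfkbia tm1Bal, in which every cell of the embryo carries the deletion, and the study also used Gfi1:tomato mice. The study describes the replicates as independent, and for its display of these data names more embryos than libraries in each genotype, from fewer experiments than there are replicate numbers. It does not tie a strain, a litter, an experiment or a number of embryos to a library, so libraries may share an experiment and p-values measure the spread between these libraries, which may be partly technical. Replicates 1 and 2 of both genotypes were read at 75 bp and replicate 3 at 50 bp. The other 4 of the 10 samples, CUT&Tag for IκBα itself, were not analysed here.

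Semaphorins bind plexins, the class 3 members mostly with neuropilins as co-receptors. Slits bind Robo receptors and repel, netrins attract through Dcc and repel through Unc5 receptors, and Eph receptor kinases bind membrane-bound ephrins on neighbouring cells. H3K27me3 is laid down by Polycomb repressive complex 2 (PRC2), mostly at CpG-rich promoters of developmental genes that the cell does not use. Some of these cues also act in blood vessels and in the movement of blood cells, so the group is not a neuronal one alone.

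The WT libraries held 4159, 6011 and 1044 peaks on the main chromosomes (replicates 1, 2 and 3), and the KO libraries 4902, 5155 and 2322. WT replicate 3 stood apart, with the fewest peaks, a median peak width of 1726 bp against 2836 to 3624 bp in the other 5 libraries, and a smallest called total signal of 3344 against 6616 to 7307. Total signal is the sum of fragment coverage over a peak and maximum signal its highest coverage, and neither was scaled to depth. The median maximum signal was 6 to 10 fragments per library. Peaks were the top 0.5% of enriched blocks of each library, so a gene without a peak fell below that library's limit and was not shown to lack the mark. Each library pooled many cells, so the same mark in fewer cells and less of it in every cell cannot be told apart. Nfkbia had a promoter peak in 0 of 6 libraries, so these data hold no check of the genotype.

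Dense CpG is the sequence feature best known to go with this mark, so the starts of 5 members are shown, the first 2 marked in all 6 libraries and the other 3 the longest members without any peak. Each is the 250 bases before the RefSeq start on GRCm38.p6, 5′ to 3′ on the strand of the gene, with every CpG in capitals. They lie at chr16:35541112-35541361 (Sema5b, plus strand), chr4:136956817-136957066 (Epha8, minus strand), chr5:47982905-47983154 (Slit2, plus strand), chr16:72662899-72663148 (Robo1, plus strand) and chr5:13396534-13396783 (Sema3a, plus strand).
Sema5b: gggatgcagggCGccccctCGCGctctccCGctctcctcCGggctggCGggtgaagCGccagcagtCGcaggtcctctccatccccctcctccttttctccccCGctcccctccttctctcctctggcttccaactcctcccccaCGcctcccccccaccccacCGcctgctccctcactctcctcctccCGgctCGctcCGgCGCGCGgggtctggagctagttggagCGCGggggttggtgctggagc
Epha8: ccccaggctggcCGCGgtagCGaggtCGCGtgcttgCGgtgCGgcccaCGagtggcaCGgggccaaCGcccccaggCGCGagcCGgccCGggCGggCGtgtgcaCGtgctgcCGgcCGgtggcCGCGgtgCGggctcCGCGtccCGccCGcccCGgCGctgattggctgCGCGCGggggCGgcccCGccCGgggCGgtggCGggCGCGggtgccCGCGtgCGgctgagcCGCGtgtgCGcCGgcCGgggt
Slit2: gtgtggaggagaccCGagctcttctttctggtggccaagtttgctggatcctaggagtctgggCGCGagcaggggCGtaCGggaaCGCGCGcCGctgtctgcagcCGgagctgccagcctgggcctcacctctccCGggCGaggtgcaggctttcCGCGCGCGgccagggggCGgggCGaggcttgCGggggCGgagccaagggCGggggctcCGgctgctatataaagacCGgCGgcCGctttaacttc
Robo1: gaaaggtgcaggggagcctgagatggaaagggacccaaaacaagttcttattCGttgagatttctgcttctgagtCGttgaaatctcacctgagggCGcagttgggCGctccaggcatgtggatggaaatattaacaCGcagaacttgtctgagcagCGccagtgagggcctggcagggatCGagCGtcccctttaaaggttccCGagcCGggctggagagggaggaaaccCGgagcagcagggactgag
Sema3a: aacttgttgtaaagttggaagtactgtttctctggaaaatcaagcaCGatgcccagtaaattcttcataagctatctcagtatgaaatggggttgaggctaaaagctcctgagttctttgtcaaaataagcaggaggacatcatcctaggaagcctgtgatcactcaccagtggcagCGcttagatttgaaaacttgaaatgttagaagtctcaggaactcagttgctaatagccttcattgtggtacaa

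The start of Epha8 held 46 CpG and that of Sema5b 19, against a median of 6 over 27025 RefSeq promoters cut to the same length, and peaks covered both of these starts in all 6 libraries. Among the unmarked genes, the Slit2 window held 25 CpG, the Robo1 window 11 and the Sema3a window 2. The RefSeq starts of Robo1 and Sema3a are annotated starts inside these genes, 354.8 and 271.4 kb downstream of the main TSS, the start with the most transcripts (the most upstream in a tie), which is used for the CpG densities given further on (9 CpG per kb at Robo1 and 18 at Sema3a). Unmarked Slit2 thus had more CpG in this window than marked Sema5b, and both had 69 CpG per kb around the main TSS. The table held 36 of the 46 members, and Ntn1, which was also marked in all 6 libraries, had no entry there.

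Of the 46 members, 33 had a promoter peak in at least 1 library, against 15.8% of protein-coding genes under the same rule. Peaks at the promoter or in the gene body gave the same 33 members, where the share of coding genes was 17.5%. Per library, 22, 29 and 9 members were marked in WT and 28, 26 and 20 in KO. For coding genes the marked share per WT library was 10.6%, 12.9% and 3.46%, and per KO library 12.9%, 12.2% and 8.06%. The members were thus marked at several times the background in each of the 6 libraries, and their count was lowest in the library with the fewest peaks and highest in that with the most. The members were gathered with earlier results of these data known. They carried a median of 5 distinct annotated TSSs against 3 for coding genes, but the 33 marked members had fewer (median 4) than the 13 unmarked (median 6). The part of either in these shares was not tested.

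**Figure D1:**
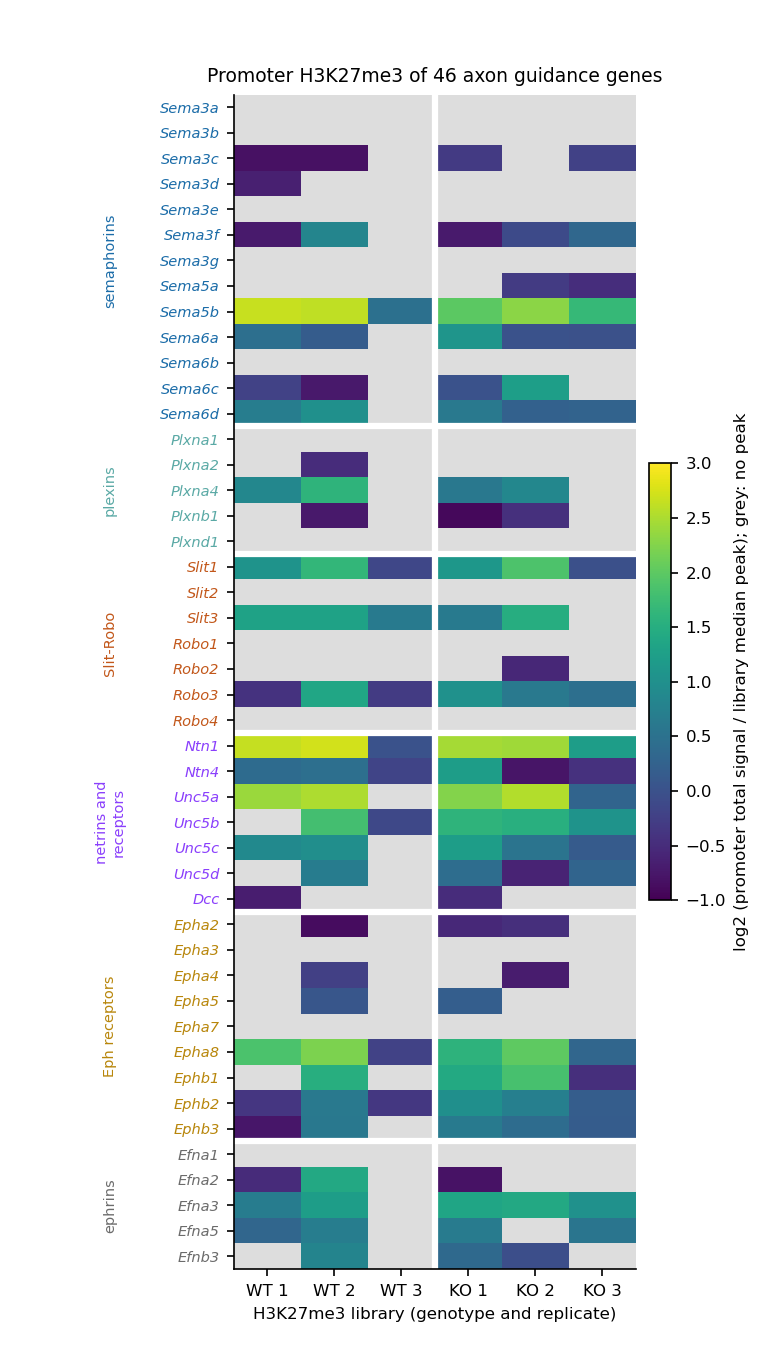
Promoter H3K27me3 of the 46 genes (rows, by family) in 6 libraries (columns, WT and KO replicates 1 to 3). Colour gives the log2 of the summed total signal of promoter peaks over the median peak of that library, and grey means that no peak was called. Sema5b, Ntn1, Unc5a and Epha8 have the brightest rows, and 13 rows are grey throughout.

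Members marked in all 6 libraries numbered 7, against 2.65% of coding genes. They were Sema5b, Slit1, Robo3, Ntn1, Ntn4, Epha8 and Ephb2, that is 4 ligands (Sema5b, Slit1, Ntn1 and Ntn4) and 3 receptors, with no plexin or ephrin among them. With an overlap of at least 500 bp, Ntn4 was marked in 3 libraries and Slit1 in 5. With the same number of top peaks in every library, Slit1 was marked in 5, Ephb2 in 3 and Robo3 and Ntn4 in 2 each. Sema5b, Ntn1 and Epha8 kept all 6 in both settings. Under the main rule, a further 9 members were marked in 5 libraries, 6 in 4, 4 in 3, 4 in 2 and 3 in a single library. In the 4 libraries of 75 bp, which had more peaks, 17 members were marked throughout (8.53% of coding genes). No promoter peak was found for 13 members, namely Sema3a, Sema3b, Sema3e, Sema3g, Sema6b, Plxna1, Plxnd1, Slit2, Robo1, Robo4, Epha3, Epha7 and Efna1, and none of them had a peak in the gene body either.

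**Figure D2:**
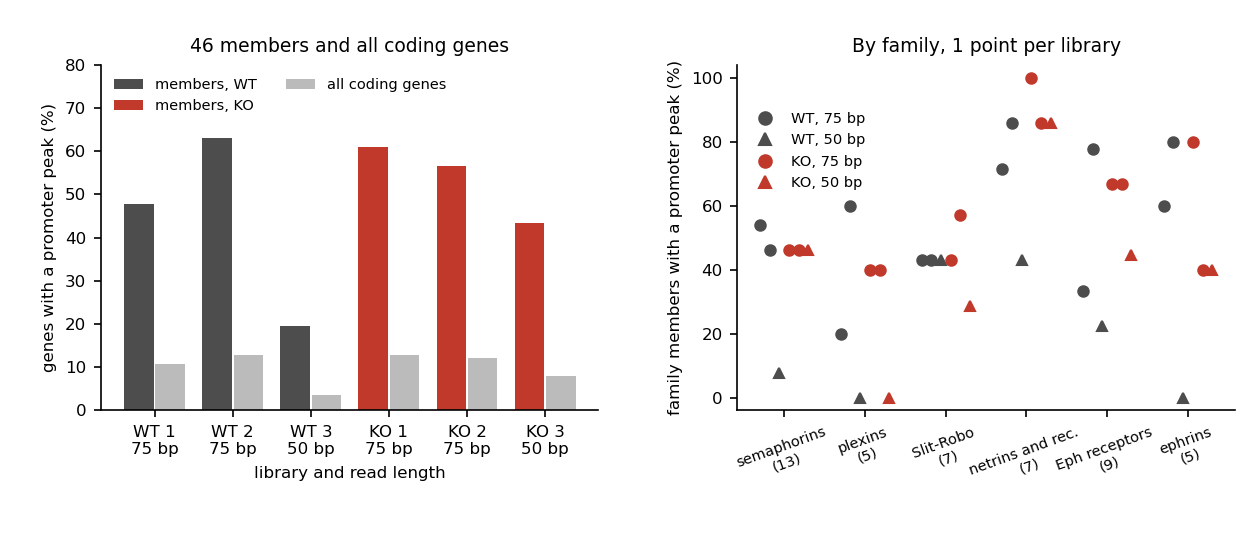
Left, the percent of the 46 members (dark and red bars) and of all protein-coding genes (grey bars) with a promoter peak in each library. Right, the percent of the members of each family marked, with 1 point per library (circles 75 bp, triangles 50 bp). The member bars of the 3 WT libraries stand at 47.8%, 63.0% and 19.6% and those of KO at 60.9%, 56.5% and 43.5%, and the WT 50 bp triangle is the lowest or shares the lowest place in every family but Slit-Robo.

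Among the member semaphorins, 8 of 13 had a promoter peak in some library and 5 had none. Sema5b (ENSMUSG00000052133.16, chromosome 16, 35541145 to 35664732), a transmembrane semaphorin with thrombospondin repeats, had the highest signal of the family. At its promoter the 3 WT libraries had total signals of 77929, 77363 and 5956 (replicates 1, 2 and 3), and the 3 KO libraries 55536, 62380 and 33211. Those values were 1.39 to 6.30 times the median peak of their library, and the strongest single Sema5b peak ranked 46 of 4159 in WT replicate 1. The WT and KO values overlapped, with WT replicate 3 lowest.

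The class 6 semaphorins, transmembrane ligands that signal through A-type plexins, followed. Sema6d had a total signal of 20119, 25370 and no peak in WT and 21491, 14917 and 12551 in KO. The 25370 included 8250 from a peak at a start far inside the gene, at position 124609498. Sema6a was marked in the same 5 libraries as Sema6d, at 0.998 to 2.13 times the library median, and Sema6c in 4. The Sema6c promoter peaks did not share 1 site, beginning at 95170642 in WT replicate 1 and at 95160390 in WT replicate 2. With starts of protein-coding transcripts only, Sema6a was marked in 3 libraries and Sema6c in 2. An overlap of at least 500 bp left 2 libraries for each. Sema6b, of the same class, had no peak, so the class was not marked as a whole. The secreted class 3 semaphorins were the least marked of the family, with 3 of 7, Sema3c, Sema3d and Sema3f, marked and Sema3a, Sema3b, Sema3e and Sema3g not. Sema3f reached 22244 in WT replicate 2 and lay between 7567 and 13042 in the 4 other libraries with a peak. Sema3c lay below the median peak of its library in each of its 4 libraries (0.566 to 0.853 times), and Sema3d was marked in WT replicate 1 alone. Sema5a, the close relative of Sema5b, had no promoter peak in any WT library and none in KO replicate 1, and 10211 and 7465 in KO replicates 2 and 3. Its values were 0.809 and 0.719 times the median peak of these libraries, and KO replicate 1 had a body peak 2.577 kb from the nearest TSS with a total signal of 7287.

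Of the 5 member plexins, receptors of semaphorins, 3 had a promoter peak in some library and none in all 6. Plxna3, Plxnb2, Plxnb3 and Plxnc1, the plexins outside the group, had none. Plxna4 was the strongest, with 22391 and 38207 in WT replicates 1 and 2, 21197 and 22736 in KO replicates 1 and 2 and no peak in either replicate 3. Plxnb1 lay at 0.532 to 0.731 times the median peak in 3 libraries and Plxna2 at 0.712 times in WT replicate 2. Plxna1 and Plxnd1, the latter a receptor of endothelial cells that guides vessels, had no peak although both have CpG-dense starts, with 138 and 105 CpG per kb.

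The Slit-Robo genes split by member. Slit1 (chromosome 19, 41600257 to 41743665), a secreted repellent of axons, was marked in all 6 libraries, with total signals of 25575, 39751 and 3877 in WT and 30422, 46578 and 10225 in KO. Slit3 was marked in the 3 WT libraries (30523, 31277 and 6636) and in KO replicates 1 and 2 (21701 and 35599), with no peak in KO replicate 3. The sums of WT replicate 2 and KO replicate 2 included 8043 and 8268 from peaks at a start far inside the gene, from position 35542575 on. Slit3 was the 1 member marked in all WT libraries and not in all KO libraries. Slit2, the third ligand, had no peak in any library. Among the receptors, Robo3 (chromosome 9, 37415669 to 37433246), which lets commissural axons cross the midline, was marked in all 6 libraries at 0.751 to 2.59 times the median peak. Robo2 had 8626 in KO replicate 2 and no other peak. Robo1 and Robo4, the latter the Robo of endothelial cells, had none, and Robo4 lies next to Robo3 on chromosome 9, between 37401897 and 37415115, where the marked and the unmarked gene are neighbours.

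Of the netrins and their receptors, 7 of 7 genes were marked in some library. Ntn1 (ENSMUSG00000020902.12, chromosome 11, 68209364 to 68400823), a secreted laminin-like cue, had total signals of 77177, 83905 and 4308 in WT and 76732, 68353 and 24389 in KO. Its values were 5.41 to 6.65 times the median peak in the libraries of 75 bp, 1.002 times in WT replicate 3 and 2.35 times in KO replicate 3. Ntn4, a netrin of basement membranes, was weaker, with 16206, 17321 and 3806 in WT and 32677, 7426 and 7667 in KO. Both ligands had overlapping WT and KO values.

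The Unc5 receptors, which mediate repulsion by netrin, were each marked in at least 4 libraries. Unc5a had 65127 and 72002 in WT replicates 1 and 2 and no peak in replicate 3, with 67128, 73249 and 12621 in KO. By geometric mean over the libraries with a peak, Unc5a was 3.996 times the median peak, the highest of the 46, ahead of Sema5b at 3.87 and Ntn1 at 3.78, an order that rests on which libraries had a peak. Unc5c lay at 23127 and 24759 in WT and 32590, 18258 and 11509 in KO, again without a peak in WT replicate 3. Unc5b had no promoter peak in WT replicate 1, 44343 in WT replicate 2 and 3919 in WT replicate 3, beside 42246, 36458 and 21541 in KO. Unc5d had 20239 in WT replicate 2 alone and 18751, 8306 and 12638 in KO. In WT replicate 1, both Unc5b (3 peaks) and Unc5d (1 peak) had peaks in the gene body, so the locus was not empty in that library. Dcc, the receptor for attraction, was the least marked of the family, with 7696 in WT replicate 1 and 9915 in KO replicate 1.

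Of the 9 member Eph receptors, 7 were marked in some library. Epha8 (chromosome 4, 136929419 to 136956816) had 45244, 58278 and 3709 in WT and 42156, 50869 and 12924 in KO. Ephb2 (chromosome 4, 136647539 to 136835988), whose kinase takes part in bidirectional signalling with B-type ephrins, had 9622, 19393 and 3384 in WT and 27859, 20995 and 11804 in KO. Both were marked in all 6 libraries, and the WT and KO ranges of each overlapped. Ephb1 had no promoter peak in WT replicates 1 and 3, 35992 in WT replicate 2, and 37700, 45013 and 7543 in KO. In WT replicate 1 Ephb1 did have a peak in its gene body. Ephb3 was marked in 5 libraries, between 7345 and 21588. Epha2, Epha4 and Epha5 were marked in 2 or 3 libraries at 0.551 to 1.15 times the median peak, and Epha3 and Epha7 in none.

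Of the 5 member ephrins, membrane-bound ligands of Eph receptors, 4 were marked, while Efna4, Efnb1 and Efnb2, which are not members, had no promoter peak. Efna3 led, at 19745 in WT replicate 1 and 29674 in WT replicate 2, beside 35573, 33535 and 21109 in KO, and was without a peak in WT replicate 3. Efna5 was marked in 4 libraries and Efnb3 in 3. Efna2 had 8721 and 33620 in WT replicates 1 and 2 and 7975 in KO replicate 1, the 1 ephrin with more WT than KO libraries marked. Its gene body held a further peak of 10627 in WT replicate 1 and of 39596 in KO replicate 1, and peaks of 7687 and 21871 in KO replicate 2. With such peaks counted, Efna2 was marked in 2 libraries of each genotype. Over the whole Efna2 region the 75 bp libraries had total signals of 30310 and 33620 in WT and 47571 and 29558 in KO, with a log2 difference of 0.12 ± 0.34 (SE). Efna1, a neighbour of Efna3 on chromosome 3 (89271733 to 89281142 against 89313899 to 89322965), had no peak.

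**Figure D3:**
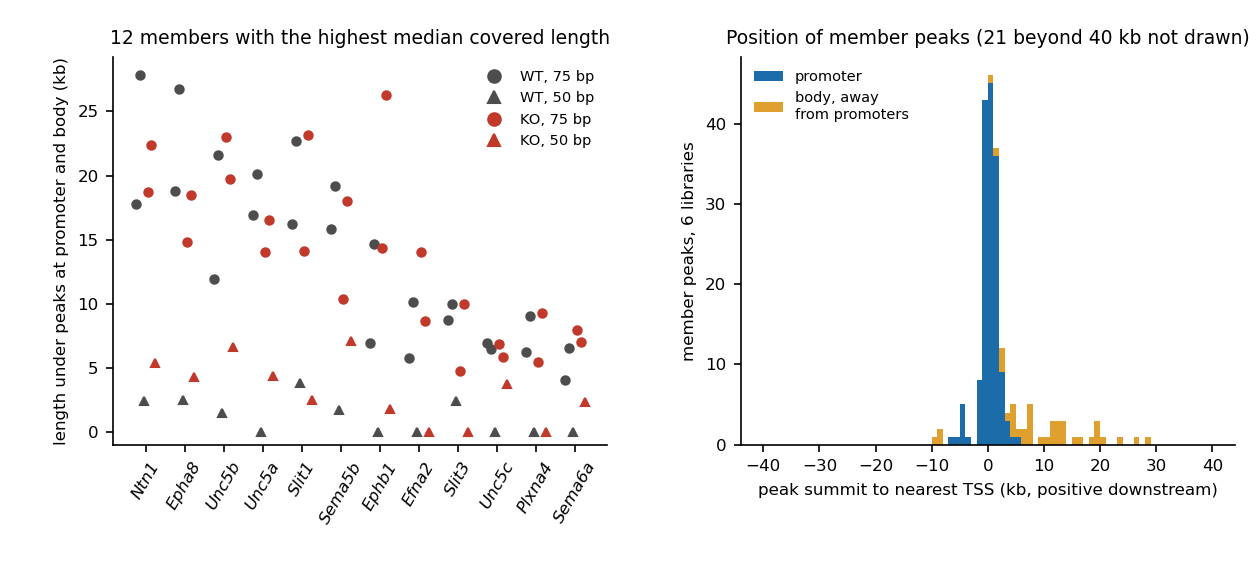
Left, the length under peaks at the promoter and body in each library for the 12 members with the highest median. Right, the distance from the summit of each member peak to the nearest TSS of its gene, for the 196 of 217 peaks within 40 kb. Ntn1 and Epha8 reach 27.9 and 26.8 kb in WT replicate 2, the 50 bp libraries lie below 8 kb throughout, and most promoter peaks stand at the TSS.

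In all, the 46 genes held 217 peaks over the 6 libraries, of which 154 lay at promoters and 63 in gene bodies away from promoters. Of the promoter peaks, 139 (90.3%) covered a TSS of the gene, against 86.5% of the 14129 promoter peaks of coding genes, and 132 (85.7%) had their summit within 2 kb of a TSS. Gene-body peaks made up 29.0% of the member peaks and 24.4% of the peaks at coding genes. The member share was the higher in each of the 4 libraries of 75 bp. It was the lower in both 50 bp libraries, at 18.2% against 20.7% in WT replicate 3 and 8.70% against 12.9% in KO replicate 3. Members were also longer than coding genes, and the part of length was not tested. The 63 body peaks came from 13 genes, with a median distance of 13820 bp from summit to TSS. Slit1 held 12 of them, Unc5b 11, Ephb1 9 and Epha8 8. The other 20 marked members had peaks at their promoters alone.

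By its median over the 6 libraries, the marked length was greatest at Ntn1, with 17.8, 27.9 and 2.44 kb under peaks in WT and 18.8, 22.4 and 5.33 kb in KO. The widest single member peak was 19277 bp, over the Ntn1 start in WT replicate 2. Epha8, a gene of 27.4 kb, had 18.8, 26.8 and 2.52 kb under peaks in WT and 14.8, 18.5 and 4.31 kb in KO. In WT replicate 2 the length under peaks at Epha8 thus came close to that of the gene, although part of it lay before the start. At Ephb1, a gene of 432.6 kb, the marked length was 6.90, 14.6 and 0 kb in WT and 14.3, 26.3 and 1.80 kb in KO, and its body peaks lay up to 131.3 kb from a TSS. At most members the mark was narrower, as at Ephb2, with 1.55 to 6.62 kb in the 6 libraries.

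Within each library, the median total signal of member promoter peaks was 0.876 to 1.25 times that of all coding promoter peaks. Member peaks thus lay on both sides of the level of other promoter peaks. No member promoter peak overlapped the promoter of another coding gene, whereas 5.40% to 8.27% of coding promoter peaks per library covered more than 1 coding promoter. Some member peaks, body peaks included, also overlapped promoters of noncoding genes, namely Slit1 with Gm22601 in all 6 libraries, Unc5c with Gm15688 in 5, Unc5b with Gm19972 in 3, Sema5a with Snhg18 in 3 (and Snord123 in 2 of them), Ephb1 with Gm37260 in 2, and Epha4 with Gm28386 and Plxnb1 with Gm7628 in 1 each. At those peaks the signal cannot be assigned to 1 of the genes.

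**Figure D4:**
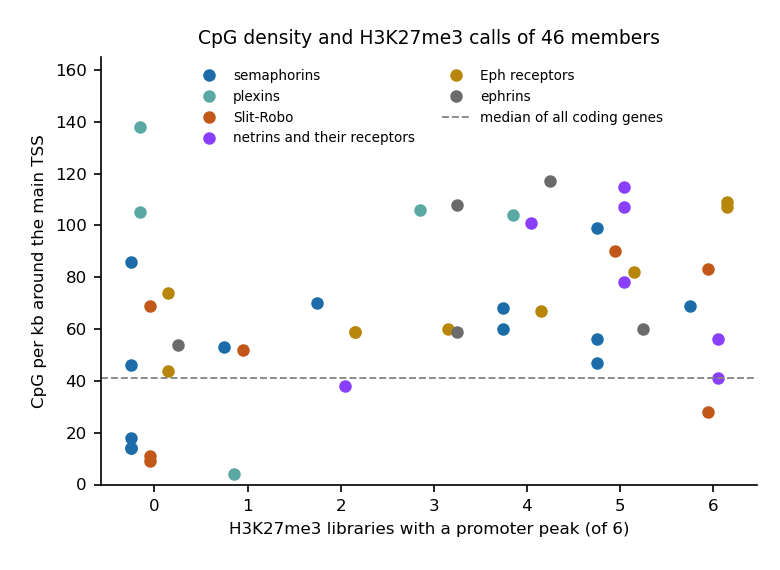
CpG per kb around the main TSS of each member (vertical axis) against the number of libraries with a promoter peak (horizontal axis, points shifted slightly by family). The dashed line is the median of all coding genes, 41 CpG per kb. The members marked in all 6 libraries span 28 to 109 CpG per kb and the unmarked ones 9 to 138.

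CpG density varied widely among members, from 4 CpG per kb at Plxna2 to 138 at Plxna1. The choice of genes did not use it directly, but earlier results of these data were known. Marked coding genes had a median of 53 CpG per kb against 36 for unmarked ones, so the member values are not independent of the choice. Around the main TSS the median was 63.5 CpG per kb over the 46 members against 41 over coding genes. By number of libraries, the median was 69 for the 7 members marked in all 6, 67.5 for the 26 marked in 1 to 5 and 46 for the 13 unmarked. A CpG-rich start (over 50% GC and an observed to expected CpG ratio over 0.6) was found in 33 members, 71.7% of the 46, against 44.3% of coding genes. Of these 33 members, 26 were marked in some library, against 18.9% of CpG-rich coding genes. Of the 13 members with a CpG-poor start, 7 were marked, against 13.4% of CpG-poor coding genes. The member shares were above the background in both classes. The exceptions went both ways. Sema3e, Sema6b, Plxna1, Plxnd1, Slit2, Epha7 and Efna1 were CpG-rich and unmarked, and Sema3f, Plxna2, Robo2, Robo3, Ntn1, Dcc and Efnb3 were CpG-poor and marked. CpG was taken at the main TSS, whereas a peak at any TSS counted. The marked start of a gene called CpG-poor here therefore need not be the start measured. The members were also long, with a median gene length of 145.7 kb against 17.43 kb, and the unmarked ones had a median of 46.3 kb.

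Whether the loss of IκBα altered the mark at these genes was asked first through the calls. The number of marked members per library was 20 ± 10.15 (SD, n = 3) in WT and 24.67 ± 4.163 (SD, n = 3) in KO, and the ranges, 9 to 29 and 20 to 28, overlapped. In the 75 bp libraries alone the means were 25.5 ± 4.95 (SD, n = 2) and 27 ± 1.414 (SD, n = 2). Without WT replicate 3, the KO minus WT difference of 4.67 members became -0.83, and without both 50 bp libraries it was 1.5. In the same libraries, the share of all coding genes marked was 9.0% ± 4.94 in WT and 11.0% ± 2.61 in KO.

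Of the members, 8 were marked in all 3 WT libraries (3.01% of coding genes) and 17 in all 3 KO libraries (7.12%). Without WT replicate 3, when fewer libraries had to be marked, the WT count was 20 (9.74% of coding genes). More KO than WT libraries were marked for 15 members (7.5% of coding genes) and more WT than KO libraries for 4 (2.29%), namely Sema3d, Plxna2, Slit3 and Efna2, the last of which was even when body peaks were counted. Among genes marked at least once, that was 15 and 4 of 33 members against 1646 and 503 of 3469 coding genes, and the 45.5% of members with more KO libraries stood beside 47.5% of coding genes. In the 75 bp libraries, 8 members had more KO libraries (3.6%) and 5 more WT libraries (2.38%). The number of marked libraries was higher in KO by 2 or more for 3 members, Sema5a, Unc5d and Ephb1 (1.06% of coding genes), and higher in WT by 2 or more for 0 (0.228%). Unc5d and Ephb1 had body peaks in WT replicate 1, as given above, and at all 3 genes the WT library count includes WT replicate 3, which had no peak.

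**Figure D5:**
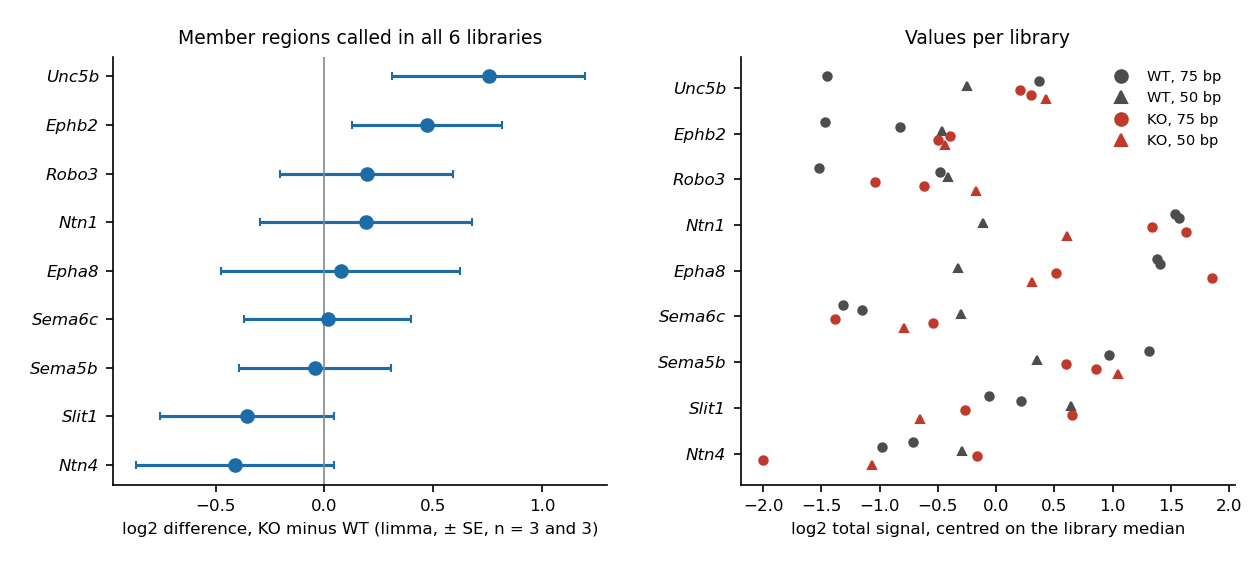
Left, the log2 difference of total signal (KO minus WT, limma estimate ± SE, 3 libraries a group) at the 9 member regions called in all 6 libraries. Right, the value of each library, centred on that library's median. The differences run from -0.41 at Ntn4 to 0.75 at Unc5b, and in each row the points of both genotypes overlap.

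The signal itself was compared at merged regions with a peak in all 6 libraries, as log2 total signal after centring by the library median, in a limma fit. Of 717 such regions, 0 (0% of those tested) passed an adjusted p of 0.05, and 8 (1.12%) had an unadjusted p under 0.05. Among them were 9 member regions, at Unc5b, Ephb2, Ntn4, Slit1, Robo3, Ntn1, Epha8, Sema5b and Sema6c, none of which passed either threshold. The Sema6c region held a peak in every library, although in WT replicate 2 and both replicate 3 libraries that peak lay in the gene body. The median log2 difference was 0.07 over the member regions and -0.02 over all 717, with a median SE of 0.40 at the member regions. A difference of the size of that SE was not detectable with these libraries.

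The Unc5b region (chromosome 10, 60824070 to 60835496, over the promoter) had the lowest p among members. Over this region the WT libraries had total signals of 9717, 44343 and 3919 and the KO libraries 42246, 36458 and 21541, where the WT replicate 1 value came from a peak that ended short of the promoter. After centring, WT lay at -1.46, 0.37 and -0.25 and KO at 0.21, 0.30 and 0.42, and the groups overlapped. The log2 difference was 0.75 ± 0.44 (SE), with a limma p of 0.118 and an adjusted p of 0.992. Without WT replicate 1 it was 0.26 and without WT replicate 2 it was 1.17, while by maximum signal it was -0.00483 and by mean signal per covered base -0.19. The Ephb2 region (chromosome 4, 136832665 to 136840600) lay at -1.47, -0.82 and -0.46 in WT and at -0.39, -0.50 and -0.44 in KO, a log2 difference of 0.47 ± 0.35 (SE, limma adjusted p of 0.992). Ephb2 was the 1 member region of 9 that was higher in KO in each of the 3 same-numbered pairs (10.2% of all 717 regions), and 0 were lower in KO in each (16.0%). With the replicate number as a block, the limma p of Ephb2 was 0.157 before adjustment. Its log2 difference was 0.20 without WT replicate 1 and 0.71 without WT replicate 3. The third in that direction was Robo3, at 0.19 ± 0.40. For Unc5b, Ephb2 and Robo3 alike the lowest centred value was that of WT replicate 1.

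In the opposite direction, the Ntn4 region (chromosome 10, 93636825 to 93644812) lay at -0.72, -0.98 and -0.29 in WT and -0.16, -2.00 and -1.07 in KO. Its log2 difference was -0.41 ± 0.46 (SE), and the groups overlapped. This difference was -0.86 without KO replicate 1, 0.0594 without KO replicate 2 and 0.33 by maximum signal. The Slit1 region differed by -0.36 ± 0.40 (-0.72 without KO replicate 2, -0.05 without KO replicate 3, -0.16 without WT replicate 3) and the Sema5b region by -0.04 ± 0.35. Maximum signal, the highest fragment coverage in the region, was at Ntn1 11, 12 and 5 fragments in WT beside 14, 12 and 18 in KO, and at Sema5b 11, 19 and 8 fragments in WT beside 11, 11 and 19 in KO. With the 75 bp libraries alone, 2557 regions could be tested, of which 119 (4.65%) had an unadjusted p under 0.05 and 0 an adjusted one. Of the 25 member regions among them, 0 had an unadjusted p under 0.05. Their log2 differences ran from -0.59 at an Epha8 region to 0.81 at Unc5b, 11 above and 14 below 0.

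Other genes of the pathway were counted from lists drawn up by function. Of 32 further ligands and receptors, 18 were marked in some library (15.8% of coding genes) and 1 in all 6 (2.65%). By name, 23 of the 32 were semaphorins, plexins, netrins, Eph receptors or ephrins, of which 10 were marked. The other 9 were ligands and receptors with other names, of which 8 were marked, the exception being Flrt3. Over members and further genes together, 12 of 20 semaphorins, 3 of 9 plexins, 5 of 6 netrins, 10 of 14 Eph receptors and 4 of 8 ephrins were marked, a lower share than among the members alone in each of these 5 families. The gene marked in all 6 was Ntng2, a membrane-anchored netrin, with 7634, 91986 and 8381 in WT and 32792, 53016 and 13059 in KO. Of the neuropilins, co-receptors of class 3 semaphorins, Nrp1 was marked in 1 WT and 2 KO libraries. Nrp2 was marked in 1 WT and 3 KO libraries, Rgmb in 0 and 2, and Sema7a in 2 and 0. Such a difference of 2 or more libraries was found in 1.06% of coding genes toward KO and 0.228% toward WT. Of 33 intracellular effectors, which carry the signal to the cytoskeleton, 15 were marked in some library and 1 in all 6, Ngef, an exchange factor downstream of Eph receptors. Chn1 was marked in 2 WT and 0 KO libraries and Farp1 in 0 and 2. The share marked was 71.7% of the members, 43.5% of the 23 further genes of these families, 88.9% of the 9 other ligands and receptors and 45.5% of the effectors, beside 15.8% of coding genes.

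The sorted population was checked by marker lists, on the ground that genes a cell uses seldom carry the mark. Of 12 HSC and progenitor genes, among them Kit, Runx1, Gata2 and Mecom, 0 were marked in any library, and likewise 0 of 5 macrophage and myeloid genes, beside 15.8% of coding genes. Lists this short cannot tell 0 from that share. Of genes of other fetal liver cells, 4 of 8 hepatoblast, 2 of 6 endothelial, 1 of 5 erythroid and 5 of 5 stellate and mesenchymal genes were marked, and so were 5 of 5 neural genes. A gene without a peak is not thereby shown to be expressed, so these counts cannot measure how many other cells the sort held.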

How the data were processed

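CUT&Tag peaks for H3K27me3 from 3 WT and 3 KO libraries were used, grouped by the sample labels. Per the study's methods and the submitters' processing notes, reads were trimmed with Trim Galore 0.6.6, aligned to GRCm38 with Bowtie2 2.4.4, stripped of multi-mapped reads, of reads with a mapping quality under 20 and of duplicates, and SEACR 1.3 called peaks per library (stringent, no IgG control, top 0.5%). The deposited signal values (total and maximum fragment coverage of each peak, in whole numbers) were not scaled to depth by the authors. The list behind the removal of blacklisted regions is not given in the sources used here.

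Gene models were GENCODE M21, and a gene counted as marked on an overlap of at least 1 bp. Promoter total signals given for a gene were summed over the peaks at all its annotated starts, which can lie far apart. Regions were merged peaks called in all 6 libraries, and log2 total signal, centred on the library median, was tested with limma 3.58.1 (R 4.3.3, Benjamini-Hochberg over all regions at 0.05). Counts over members carry no test, since the members and lists were chosen with earlier results of these data known. Promoter CpG was counted in 1000 bp around the main TSS. Named genes were members marked in all 6 libraries or differing by 2 or more libraries between genotypes, the leading member and an unmarked one of each family, the regions with the lowest limma p in each direction, members with body peaks, and those sharing a peak with another promoter. The remaining members are given with their values as a description, and the further ligands and receptors were split by gene name after their values were seen. Same-numbered WT and KO libraries deviated together (r = 0.272, 0.314 and 0.469 by number, over 717 regions that are not independent of each other, where replicate 3 also differs in read length). Libraries of unlike number gave -0.442 to 0.268, the highest for WT replicate 2 with KO replicate 1. For this reason 1 alternative fit used the number as a block. Peaks on the mitochondrial genome were left out. Python 3.11.15, numpy 2.4.6, pandas 2.3.3 and matplotlib 3.10.9 were used.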

Additional observations from a re-analysis of the deposited data

How the results depend on the processing

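WT replicate 3 had the fewest and narrowest peaks and the lowest smallest called signal, and the part of each in these results was not tested. Leaving out each library in turn moved the number of members marked in all WT libraries between 8 and 20 (3.01% to 9.74% of coding genes). The number in all KO libraries moved between 17 and 23 (7.12% to 10.7%), and the KO minus WT difference between -0.83 and 9.17 members. The count in all WT libraries, 8, was 5 with an overlap of at least 500 bp, 4 with the 1044 highest peaks of every library, 3 with peaks above the library median, 20 in the 75 bp libraries and 21 with at least 2 of 3 libraries. The count in all KO libraries, 17, was 6, 10 and 26 with the equal number of peaks, the peaks above the median and at least 2 of 3 libraries. The other promoter definitions left both counts within 1.5 times.

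In limma, 0 regions passed an adjusted p of 0.05 under the 14 alternatives, members included, and 0 to 119 had an unadjusted p under 0.05. 1 member region had an unadjusted p under 0.05 with array weights (Ephb2, limma p of 0.0429) and 1 without WT replicate 2 (Unc5b, limma p of 0.0214). The member median stayed between -0.17 (scaled by the library total, where the median of all regions was -0.26) and 0.26. With the replicate block, which uses the pairing of replicate numbers, 0 regions and 0 member regions passed, 25 had an unadjusted p under 0.05 (8 without the block), the member median was 0.07, and the block changed no call. The sign of single regions turned with the measure. By maximum signal Unc5b gave -0.00483, Ephb2 -0.0892, Robo3 -0.19, Ntn4 0.33 and Slit1 0.0837, and by mean signal per covered base Unc5b -0.19, Ephb2 -0.25, Robo3 -0.0821, Ntn4 0.14 and Slit1 0.16. Scaled by the library total Robo3 gave -0.0482, and in the 75 bp libraries Slit1 gave 0.13. Leaving out 1 library moved Unc5b between 0.26 and 1.17, Ephb2 between 0.20 and 0.71 and Slit1 between -0.72 and -0.05, and turned Robo3 (-0.16 to 0.416), Ntn4 (-0.86 to 0.0594) and Sema5b (-0.295 to 0.18). The causes were not tested.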
